A study of Mus musculus with 8 samples.

Results

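The genes described here encode the receptors for tumor necrosis factor (TNF) and the proteins that assemble on them. There were 10 such genes among the 55414 Ensembl gene IDs of the table, taken by symbol: the receptors Tnfrsf1a and Tnfrsf1b, the adaptors Tradd, Traf1 and Traf2, the kinase Ripk1, the ubiquitin ligases Birc2 and Birc3, and the kinases Ikbkb and Chuk. RNA was measured in Paneth cells that had been purified by cell sorting from the small intestine of wild-type mice, 3 hours after an injection of phosphate-buffered saline (PBS, the control) or TNF. Each group had 4 libraries, numbered 1 to 4 as in the labels, and the study's mice were C57BL/6J. The labels and methods read here name neither the dose of TNF nor the age of the mice. Both groups shared genotype, tissue, sort and time point, and as far as the labels say differed only by the injected agent.

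TNF is an inflammatory cytokine that is bound by a pair of receptors. Tnfrsf1a encodes the death domain receptor, present on most cell types, and Tnfrsf1b the receptor without a death domain, best known from leukocytes and endothelium. On the bound death domain receptor, TRADD and RIPK1 recruit TRAF2 with the ubiquitin ligases encoded by Birc2 and Birc3, and the ubiquitin chains that follow hold the IKK complex (IKBKB, CHUK and the regulatory subunit IKBKG), which frees NF-kB for transcription. Birc3, Traf1 and Tnfrsf1b are known NF-kB target genes in other cells. In the intestine, TNF acts on epithelial cells as well as on immune cells, and Paneth cells are the epithelial cells at the crypt base that secrete antimicrobial peptides.

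The libraries held between 23824717 and 32576077 counts, and between 16712 and 19135 genes were detected in each. TNF replicate 4 stood apart from the other libraries: alpha-defensin genes took 51.4% of its counts, against 32.0% to 37.9% elsewhere, and its TMM scaling factor was 0.448, against 0.995 to 1.36. Each of the 7 Paneth cell markers looked up was detected, with Lyz1 at 141700 ± 24840 normalized CPM in PBS and 229500 ± 150400 in TNF (SD, n = 4). Of these markers Pla2g2a was called higher in TNF (log2 fold change 1.01), the other 6 were not called, and under library size alone 0 were called. Their summed level was 311100 to 459300 in PBS and 388300 to 1209000 in TNF, the highest in TNF replicate 4, whose small scaling factor enters all its normalized values. Normalized CPM are counts scaled to a common effective library size by TMM, a method that assumes most genes to be unchanged between libraries. Of 9 immune cell markers 3 were tested. Cd52 (log2 fold change 1.69) and Ms4a1 (2.94) were called higher in TNF, and Lyz2 (1.365) was not called. Cd3e and Adgre1 were at 0 counts in all 8 libraries (a count of 0 allows up to 3 counts per library). Ptprc, the pan-leukocyte marker, was at 0.222 ± 0.136 normalized CPM in PBS and 0.211 ± 0.375 in TNF.

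The question was how the transcripts of this complex stood in Paneth cells 3 hours after TNF. Of the 10 genes, 9 had enough counts to be tested. After TNF 7 were higher, 0 were lower and 2 were not called by the quasi-likelihood test of edgeR (Benjamini-Hochberg adjusted p under 0.05 over all 13368 genes tested). Over all genes tested, 23.3% were called higher and 19.6% lower in the same fit. The median log2 fold change was 0.67 over these 9 and 0.03 over everything tested. For 6 of the 9, every TNF value lay above every PBS value, which held for 22.4% of all genes tested. The rises were unequal. Birc3, Tnfrsf1b and Ripk1 rose more than 2-fold, Tnfrsf1a rose 1.96-fold, Chuk, Traf2 and Ikbkb rose by less, and Tradd and Birc2 were not called. Only Birc3, Tnfrsf1b and Ripk1 were also called higher under library size alone, where 5.66% of all genes were. In bulk samples such as these, a change in the number of cells of a type and a change in RNA per cell cannot be told apart.

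Markers of other cell types moved together with these rises. Of the 5 stem cell markers 4 were called lower, namely Lgr5 (-1.21), Ascl2 (-2.13), Axin2 (-1.53) and Smoc2 (-0.56), and their summed level was 1455 to 2352 normalized CPM in PBS and 1313 to 1856 in TNF, mostly that of Olfm4. Of the 7 goblet cell markers Muc2 was called higher (1.27), Clca1 (-2.55) and Fcgbp (-1.53) lower and the other 4 were not called, with sums of 7160 to 11190 in PBS and 11240 to 25450 in TNF. Of the 7 markers of stroma and endothelium only Vim could be tested and was called higher (2.05), with sums of 0.260 to 0.453 in PBS and 1.23 to 1.80 in TNF and Col3a1 at 0 counts throughout. Of the 8 enterocyte markers Apoa4 was called lower (-3.94) and 7 were not called, with sums of 273 to 305 in PBS and 294 to 321 in TNF. Under library size alone, where 5.66% of all genes were called higher and 18.1% lower, 3 stem cell, 2 goblet cell and 2 enterocyte markers were lower, 0 goblet cell markers were higher, and Vim and 2 immune cell markers were higher. The part of such cells in the values of the receptor complex was not tested.

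**Figure D1:**
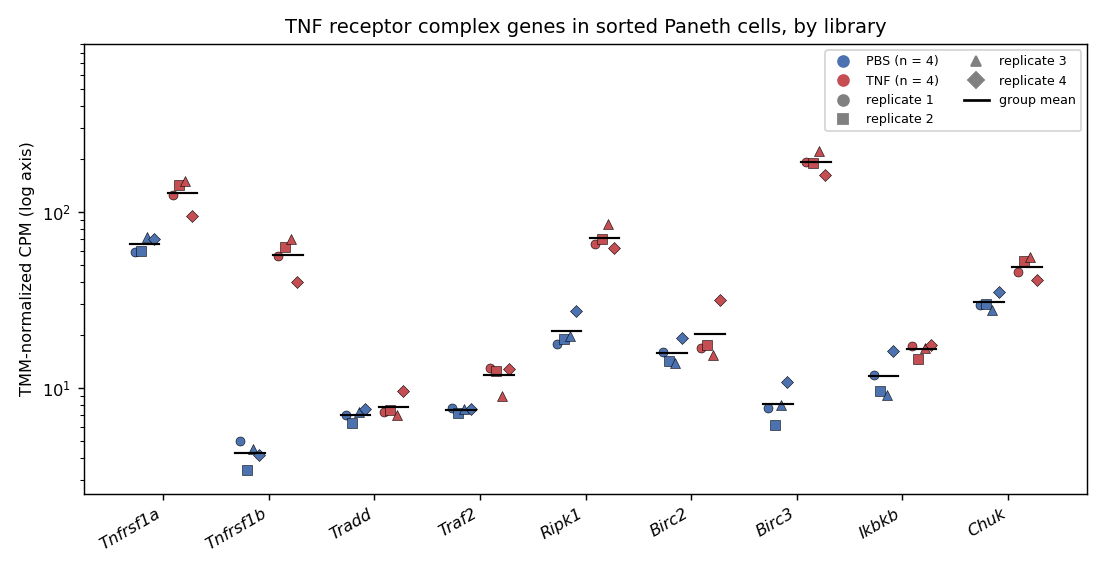
Normalized CPM (log axis) of the 9 tested genes in each library, PBS in blue and TNF in red, with 1 symbol per replicate number and a line at the group mean. The TNF values of Birc3 lie between 163 and 222 and its PBS values between 6.10 and 10.7, while the groups overlap for Tradd, Birc2 and Ikbkb.

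The promoter sequences of the receptors and of the Birc pair are shown because the genes of each pair had unequal responses. Each sequence is the 250 bases before the start site of the canonical transcript in GENCODE release 39 for mouse, read from GRCm39 and written 5′ to 3′ on the strand of the gene. Capitals mark matches to GAS, the palindromic element bound by STAT factors, searched on both strands as TTCNNNGAA. The regions are chr6:125326423-125326672 on the plus strand for Tnfrsf1a, and on the minus strand chr4:144973441-144973690 for Tnfrsf1b, chr9:7837059-7837308 for Birc2 and chr9:7873230-7873479 for Birc3.
Tnfrsf1a: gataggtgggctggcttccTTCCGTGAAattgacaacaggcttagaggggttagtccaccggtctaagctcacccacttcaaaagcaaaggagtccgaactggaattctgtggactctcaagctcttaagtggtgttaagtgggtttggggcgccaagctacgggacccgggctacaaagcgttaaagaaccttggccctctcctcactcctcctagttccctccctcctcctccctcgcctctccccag
Tnfrsf1b: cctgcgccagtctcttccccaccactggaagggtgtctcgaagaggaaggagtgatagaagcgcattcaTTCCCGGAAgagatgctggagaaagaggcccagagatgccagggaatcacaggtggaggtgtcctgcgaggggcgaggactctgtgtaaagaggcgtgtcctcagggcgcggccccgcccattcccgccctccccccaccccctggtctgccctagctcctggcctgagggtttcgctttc
Birc2: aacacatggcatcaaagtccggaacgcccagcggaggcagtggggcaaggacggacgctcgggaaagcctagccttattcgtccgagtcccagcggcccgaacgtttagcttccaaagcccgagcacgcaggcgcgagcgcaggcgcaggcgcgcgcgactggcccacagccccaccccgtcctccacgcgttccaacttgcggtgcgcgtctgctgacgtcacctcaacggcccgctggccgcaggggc
Birc3: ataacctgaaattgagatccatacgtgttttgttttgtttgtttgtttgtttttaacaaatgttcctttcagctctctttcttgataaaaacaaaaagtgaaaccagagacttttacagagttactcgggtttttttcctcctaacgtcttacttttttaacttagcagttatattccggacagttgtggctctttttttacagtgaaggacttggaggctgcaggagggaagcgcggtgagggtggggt

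A GAS match was found for 3 of the 10 genes, in Tnfrsf1a (first base at position -231 from the start site), Tnfrsf1b (at -181) and Chuk (at -191), in windows of 250 bases before to 50 after the start. The same letters were found in 7.48% of the promoters of the 11667 tested protein-coding genes. AP-1 (TGANTCA on both strands) was matched in Traf1 alone among the 10, at -71 from its start site, and in 5.21% of tested promoters. Exact matches to the NF-kB consensus, on both strands, were found in 0 of the 10 windows and in 5.07% of tested promoters. This says only that those letters are not in these windows. The pair of Birc promoters differed most in base composition: G and C made up 38.8% of the Birc3 sequence, lower than in all but 2.17% of tested promoters, and 68.4% of the Birc2 sequence, with a median of 56.8% over tested promoters.

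Both receptors rose, and Tnfrsf1b, the one at the lower level in PBS, rose more. Tnfrsf1a (ENSMUSG00000030341, chromosome 6, 125325566 to 125339632, GRCm39) was at 59.3, 60.2, 72.1 and 69.9 normalized CPM in PBS replicates 1 to 4 and at 125, 143, 149 and 94.3 in the TNF replicates. The groups did not overlap, although TNF replicate 4 sat below the other TNF libraries. The mean went from 65.4 ± 6.58 to 128 ± 24.6 (SD, n = 4), so that the log2 fold change was 0.97 (SE 0.16, 95% interval 0.62 to 1.31, adjusted p in edgeR 0.000600). When each library was left out in turn the log2 fold change was 0.88 to 1.10, and it was above 1 without TNF replicate 4 (1.10) or PBS replicate 3 (1.02) and below 1 in the other 6 fits. The PBS level set Tnfrsf1a above 92.9% of tested genes. At most 19 bases of its exons overlap an exon of the antisense gene Plekhg6, which had at most 116 counts in a library.

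Tnfrsf1b (ENSMUSG00000028599, chromosome 4, 144938938 to 144973477) was at 4.96, 3.42, 4.49 and 4.12 normalized CPM in the PBS replicates and at 55.7, 62.7, 70.1 and 40.1 in the TNF replicates. Each TNF library was at least several times above the highest PBS library. The mean went from 4.25 ± 0.650 to 57.2 ± 12.8 (SD, n = 4), so that the log2 fold change was 3.75 (SE 0.20, interval 3.32 to 4.18, adjusted p in edgeR 3.26e-07), or 13.4-fold. This was the 125th highest log2 fold change of the 13368 genes tested. Raw counts were 92 to 185 in PBS and 467 to 1997 in TNF. Because this receptor is abundant on leukocytes, the whole list of immune markers is given beside it. Of 9 markers 3 were tested, and Cd52 (log2 fold change 1.69) and Ms4a1 (2.94) were called higher, at no more than 39 and 30 counts in a library. The summed level of the 9 was 7.40 to 13.2 normalized CPM in PBS and 11.3 to 69.9 in TNF. Most of it was Lyz2 in every library, at 6.25 to 11.7 in PBS and 9.45 to 64.4 in TNF, highest in TNF replicate 4. The related gene Lyz1 was also highest in that library (454500 normalized CPM), and its part in the Lyz2 values was not tested. The other 8 markers summed to 1.15 to 1.498 in PBS and 1.81 to 5.50 in TNF. The part of such cells in the rise of Tnfrsf1b was not tested, and the rise was 3.90 without that library.

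The balance of the receptors within a library was also compared, since such a ratio does not depend on scaling between libraries. The ratio of Tnfrsf1b to Tnfrsf1a counts was 0.0836, 0.0569, 0.0623 and 0.0589 in the PBS replicates and 0.445, 0.439, 0.470 and 0.426 in the TNF replicates. The groups were far apart and the TNF libraries, replicate 4 included, lay close together. The log2 ratio was 2.78 higher in TNF, from -3.95 ± 0.252 to -1.17 ± 0.0590 (SD, n = 4), or 6.86-fold. A two-sided exact permutation test gave p = 0.0286, the smallest possible with 4 against 4, and 0.0571 after Benjamini-Hochberg adjustment over the 4 pairs tested in the same way, which does not pass 0.05. Per kilobase of exon, Tnfrsf1b made up 3.49% to 5.05% of the transcripts of both receptors in PBS and 21.3% to 23.0% in TNF, so Tnfrsf1a was the more abundant in every library. With the length of the canonical transcript in place of all exons, the shares were 2.46% to 3.57% and 15.9% to 17.2%.

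**Figure D2:**
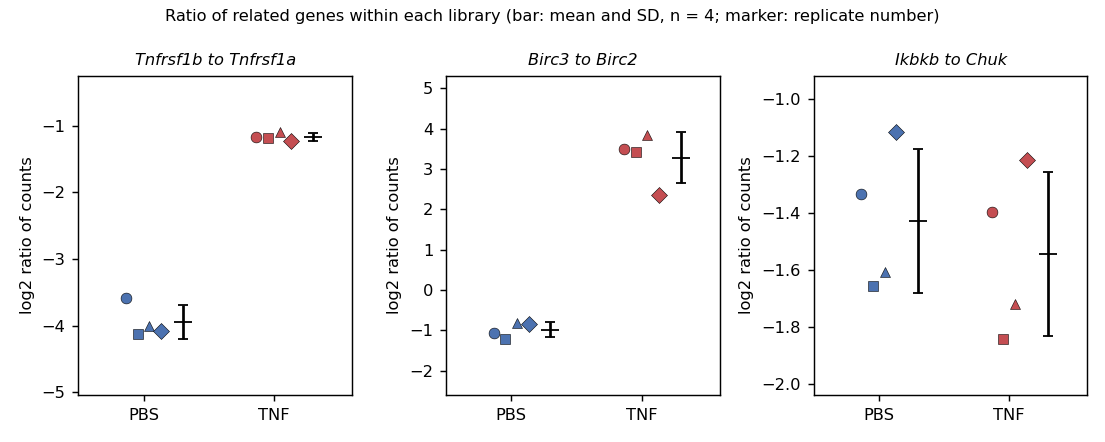
Log2 ratio of counts of related genes in each library for 3 pairs, with 1 symbol per replicate number and the mean with SD (n = 4) beside it, on a separate vertical axis for each pair. The ratio of Tnfrsf1b to Tnfrsf1a and that of Birc3 to Birc2 are higher in every TNF library than in any PBS library, while those of Ikbkb to Chuk overlap.

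Of the adaptors, one was not called, one rose slightly and one was hardly detected. Tradd (ENSMUSG00000031887, chromosome 8, 105984883 to 105996354), the death domain adaptor that binds the receptor, was at 6.95, 6.32, 7.29 and 7.52 normalized CPM in PBS and at 7.24, 7.44, 7.02 and 9.54 in TNF. The groups overlapped, and TNF replicate 4 was the only TNF library above all PBS libraries. The log2 fold change was 0.14 (SE 0.14, adjusted p in edgeR 0.435), with an interval of -0.16 to 0.45, so a rise of up to 1.36-fold is within its error. Up to 61 bases of a Tradd exon overlap Hsf4 and 6 overlap Fbxl8, both antisense to it and at no more than 109 counts in a library, with Fbxl8 called lower (-0.71).

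Traf2 (ENSMUSG00000026942, chromosome 2, 25406097 to 25436987), the adaptor that brings the ubiquitin ligases to the receptor, was at 7.67, 7.14, 7.57 and 7.54 normalized CPM in PBS and at 13.0, 12.4, 8.95 and 12.7 in TNF. The PBS libraries were nearly equal, and each TNF library was above them, with replicate 3 the closest. The log2 fold change was 0.65 (SE 0.14, interval 0.34 to 0.96, adjusted p in edgeR 0.00351). Traf1 (ENSMUSG00000026875, chromosome 2, 34831762 to 34851837), a TRAF without a RING domain that pairs with TRAF2, had 0, 1, 2 and 3 counts in the PBS libraries and 0, 0, 2 and 0 in the TNF libraries. All 8 values were at or under the limit of 3 counts that a count of 0 allows, so no fold change is given. Reads of 75 bases from its canonical transcript would match no transcript of another gene. The ratio of Traf1 to Traf2 was part of the 4 pairs (two-sided exact permutation p = 0.229, adjusted p = 0.305), but with so few Traf1 counts its value depends on the 0.5 added to each count.

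Ripk1 (ENSMUSG00000021408, chromosome 13, 34186141 to 34221130), the kinase that stands between NF-kB signalling and cell death on the receptor, rose clearly. It was at 17.8, 18.8, 19.8 and 27.3 normalized CPM in PBS and at 65.5, 69.98, 85.6 and 61.9 in TNF. PBS replicate 4 was the highest PBS library, and all TNF libraries were well above it. The mean went from 20.9 ± 4.31 to 70.7 ± 10.4 (SD, n = 4), so that the log2 fold change was 1.76 (SE 0.16, interval 1.40 to 2.12, adjusted p in edgeR 1.34e-05), or 3.38-fold. Ripk1 was the member with the most shared sequence, with 90.9% of all stretches of 75 bases in the canonical transcript unique to it. Of the rest, 437 were shared with the pseudogene Gm17084, which had 0 counts in every library, and 169 with Serpinb6a, which is antisense to it and overlaps an exon by 241 bases. Serpinb6a was itself called higher (log2 fold change 1.18), with 1659 to 3726 counts, and whether the counting used strand is not stated in any source read here. Its part in the Ripk1 value was not tested.

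The ubiquitin ligases lie next to each other on chromosome 9 and differed most of all. Birc3 (ENSMUSG00000032000, 7845790 to 7873229) was at 7.62, 6.10, 7.92 and 10.7 normalized CPM in PBS and at 191, 189, 222 and 163 in TNF. No TNF library came near a PBS library. The mean went from 8.09 ± 1.92 to 191 ± 24.4 (SD, n = 4), so that the log2 fold change was 4.56 (SE 0.20, interval 4.12 to 4.997, adjusted p in edgeR 1.54e-07), or 23.6-fold, the 76th highest log2 fold change among all tested genes. Raw counts were 164 to 473 in PBS and 1892 to 6332 in TNF. The immune marker values given for Tnfrsf1b stand beside this rise as well, and it was 4.64 without TNF replicate 4.

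Birc2 (ENSMUSG00000057367, 7818227 to 7837120) was at 15.96, 14.1, 13.8 and 19.1 normalized CPM in PBS and at 16.9, 17.5, 15.4 and 31.5 in TNF. The groups overlapped, and TNF replicate 4 was far above the other 7 libraries. The log2 fold change was 0.35 (SE 0.22, adjusted p in edgeR 0.221), with an interval of -0.13 to 0.84, and 0.09 without TNF replicate 4. Sequence shared between the ligases was small, since 40 of the 75-base stretches of the canonical Birc2 transcript also occur in Birc3, and 98.8% are unique to Birc2. In PBS the ligases thus stood with Birc2 ahead, and in TNF with Birc3 ahead. The ratio of Birc3 to Birc2 counts was 0.477, 0.432, 0.573 and 0.562 in the PBS libraries and 11.3, 10.8, 14.4 and 5.17 in the TNF libraries. It was lowest among the TNF libraries in replicate 4 and still above all PBS libraries there. The log2 ratio was 4.26 higher in TNF, from -0.98 ± 0.195 to 3.29 ± 0.639 (SD, n = 4; two-sided exact permutation p = 0.0286, adjusted p = 0.0571), or 19.2-fold.

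The catalytic IKK kinases rose by little. Chuk (ENSMUSG00000025199, chromosome 19, 44061769 to 44095935), the IKK subunit also used by the non-canonical NF-kB pathway, was at 29.6, 30.1, 27.6 and 35.0 normalized CPM in PBS and at 45.7, 52.2, 55.1 and 40.7 in TNF. All TNF libraries were above all PBS libraries, with a log2 fold change of 0.67 (SE 0.13, interval 0.38 to 0.95, adjusted p in edgeR 0.00175). Ikbkb (ENSMUSG00000031537, chromosome 8, 23148709 to 23196607), the subunit that marks NF-kB inhibitors for degradation, was at 11.7, 9.52, 9.07 and 16.2 in PBS and at 17.4, 14.6, 16.7 and 17.5 in TNF. PBS replicate 4 lay within the TNF range. The log2 fold change of 0.50 (SE 0.18, interval 0.10 to 0.90, adjusted p in edgeR 0.0441) was close to the threshold. It was no longer called when PBS replicate 1, 2 or 3 or TNF replicate 1, 2 or 3 was left out (0.40 to 0.52, adjusted p in edgeR 0.0616 to 0.118), and without PBS replicate 4 it was 0.67. The ratio of Ikbkb to Chuk counts was 0.279 to 0.430 in TNF and 0.317 to 0.462 in PBS, with overlapping groups and a difference in the log2 ratio of -0.12 (two-sided exact permutation p = 0.571, adjusted p = 0.571). Ikbkg, the regulatory subunit of the same complex and named after its values were seen, was lower in TNF (log2 fold change -0.43, SE 0.11, adjusted p in edgeR 0.0111), from 16.04 ± 0.802 to 12.0 ± 1.27 normalized CPM (SD, n = 4).

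TNF replicate 4 did not move in 1 direction over these genes. Among the TNF libraries it had the lowest normalized CPM for 5 of the 9 tested genes (Tnfrsf1a, Tnfrsf1b, Ripk1, Birc3 and Chuk), the highest for 3 (Tradd, Birc2 and Ikbkb) and a middle value for Traf2. Without it the number called higher was again 7. Scaling moved the number called by more than leaving out any single library did. Under library size alone the median over all genes tested moved by -0.40, 5.66% of all genes were called higher, and 3 of the 9 genes were, namely Birc3 (4.18), Tnfrsf1b (3.42) and Ripk1 (1.38). Tnfrsf1a (0.64), Chuk (0.30), Traf2 (0.24) and Ikbkb (0.073) were then not called, and Birc2 (-0.18) and Tradd (-0.30) changed sign. Set against the median of all genes under that scaling, the values were 4.56 for Birc3, 3.80 for Tnfrsf1b, 1.76 for Ripk1, 1.02 for Tnfrsf1a, 0.68 for Chuk, 0.62 for Traf2, 0.45 for Ikbkb, 0.20 for Birc2 and 0.08 for Tradd.

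**Figure D3:**
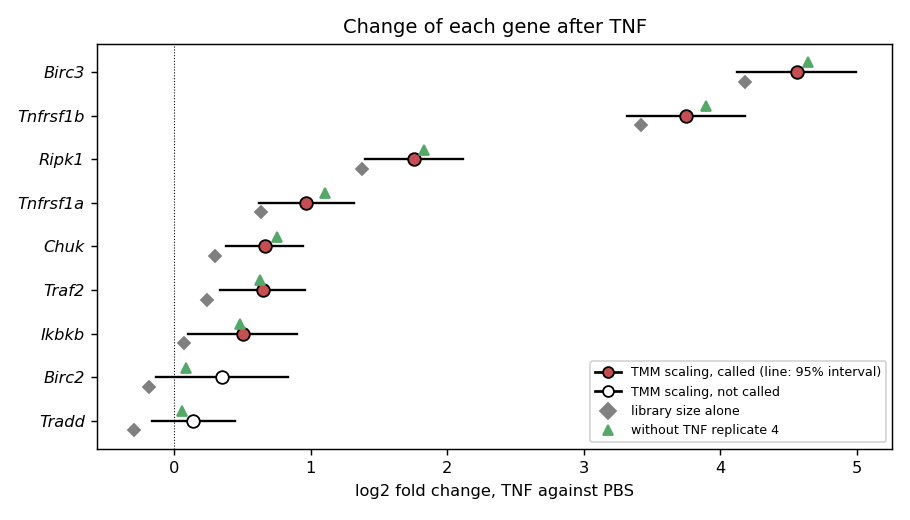
Log2 fold change of each tested gene, TNF against PBS, as circles with 95% intervals under TMM scaling (filled where called), with grey diamonds for library size alone and green triangles for the fit without TNF replicate 4. Birc3, Tnfrsf1b and Ripk1 lie to the right of 1 under all 3, while Tradd and Birc2 lie near 0 and are negative under library size alone.

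Compared per length, the order of the genes changed after TNF. In PBS, Tnfrsf1a was the most abundant at 20.8 ± 2.09 normalized CPM per kilobase of exon (SD, n = 4), followed by Chuk at 5.09 ± 0.522, Tradd at 3.04 ± 0.225, Birc2 at 2.41 ± 0.368, Ripk1 at 1.90 ± 0.392, Traf2 at 0.974 ± 0.0302, Birc3 at 0.932 ± 0.221, Tnfrsf1b at 0.858 ± 0.131 and Ikbkb at 0.478 ± 0.133. Traf1 was last, at its few counts. Every library of Tnfrsf1a was above every library of Chuk, and likewise for Chuk over Tradd. Levels overlapped between Tradd and Birc2, between Birc2 and Ripk1, and along Traf2, Birc3 and Tnfrsf1b. In TNF, Tnfrsf1a was still first at 40.6 ± 7.81, and Birc3 (22.04 ± 2.81) and Tnfrsf1b (11.6 ± 2.58) had moved from the seventh and eighth place to the second and the third. Tnfrsf1b overlapped there with Chuk (8.07 ± 1.08), and Chuk with Ripk1 (6.44 ± 0.950). The order below the top depends on which length is used, above all for Ikbkb, whose exons span 24325 bases in all and 3591 in the canonical transcript. With canonical lengths, 3 of the 10 genes kept their place in PBS and 4 in TNF, with Tnfrsf1a first and Traf1 last in both groups and Birc3 second in TNF.

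The genes around the complex were counted in 7 groups chosen by their role, 52 genes in all. The choice was made with earlier results of these data known, so the counts describe the groups and give no independent support. Of these 49 were tested, 34 were called higher and 3 lower, with a median log2 fold change of 0.85, where 23.3% of all genes tested were called higher and 19.6% lower. Under library size alone 19 were called higher and 3 lower, against 5.66% and 18.1% of all genes, with a median of 0.38. The counts of the single groups that follow are to be read against these shares, each under its own scaling, and the groups were not tested against each other. The genes called lower were Mapk14, Ikbkg and Tab1 (-0.66, SE 0.12, adjusted p in edgeR 0.00134), of which Ikbkg and Tab1, a subunit of the TAK1 kinase complex, were named after their values were seen.

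Among ligands and shedding factors, all 4 tested genes of 6 were called higher, with a median of 1.59, and under library size alone 3 were, with a median of 1.201. Tnf itself went from 0.320 ± 0.169 to 19.0 ± 3.13 normalized CPM (SD, n = 4), so that the log2 fold change was 5.80 (SE 0.29, adjusted p in edgeR 3.19e-07), so transcripts of the ligand were present in the sorted samples. Leukocytes are the best known source of Tnf. The study describes Paneth cells sorted in this way as nearly pure, citing single-cell RNA-seq, and purity was not measured here. The immune marker values given above stand beside this rise too, and their part in it was not tested. Among the genes of IKK and NF-kB, 10 of 11 were called higher and 1 lower, with a median of 2.36, and under library size alone the counts were again 10 and 1, with a median of 2.01. Rel, an NF-kB subunit, rose by 4.48 (SE 0.25, adjusted p in edgeR 4.79e-07) and Relb, the subunit of the non-canonical pathway, by 3.08 (SE 0.12, adjusted p in edgeR 9.34e-08).

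Of the 7 tested genes of ubiquitin chain assembly and the TAK1 complex 3 were called higher and 1 lower, with a median of 0.35. Under library size alone 0 were higher and 1 lower, and the median turned to -0.075. Ube2d3, a ubiquitin conjugating enzyme, had the largest rise, at 1.14 (SE 0.19, adjusted p in edgeR 0.000619). In the group of the linear ubiquitin ligase and the deubiquitinases, 5 of 9 were called higher and 0 lower, with a median of 0.63, and under library size alone 3 were higher, with a median of 0.29. Tnfaip3, the ubiquitin editing enzyme that damps the pathway, rose by 3.96 (SE 0.19, adjusted p in edgeR 2.72e-07).

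Of the other TRAFs and the NIK arm 5 of 6 were called higher under TMM scaling (median 1.00) and 0 under library size alone (median 0.58). Traf6, used by Toll-like and interleukin receptors, rose by 1.17 (SE 0.18, adjusted p in edgeR 0.000412) and Tank, a TRAF-binding scaffold, by 1.06 (SE 0.12, adjusted p in edgeR 4.61e-05). In the death arm 4 of 6 were called higher and 0 lower, with a median of 1.08, and under library size alone 3 were higher, with a median of 0.70. Mlkl, which forms pores in necroptosis, rose by 2.62 (SE 0.24, adjusted p in edgeR 1.15e-05), and Casp8, the initiator caspase recruited to the receptor complex, by 1.85 (SE 0.11, adjusted p in edgeR 5.39e-07). In the MAP kinase arm 3 of 6 were called higher and 1 lower, the latter a share close to the 19.6% of all genes, with a median of 0.12. Under library size alone 0 were higher and 1 lower, with a median of -0.24. Mapk14, the p38 kinase, fell from 28.8 ± 1.40 to 17.2 ± 1.08 normalized CPM (SD, n = 4), so that the log2 fold change was -0.74 (SE 0.10, adjusted p in edgeR 0.000183).

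**Figure D4:**
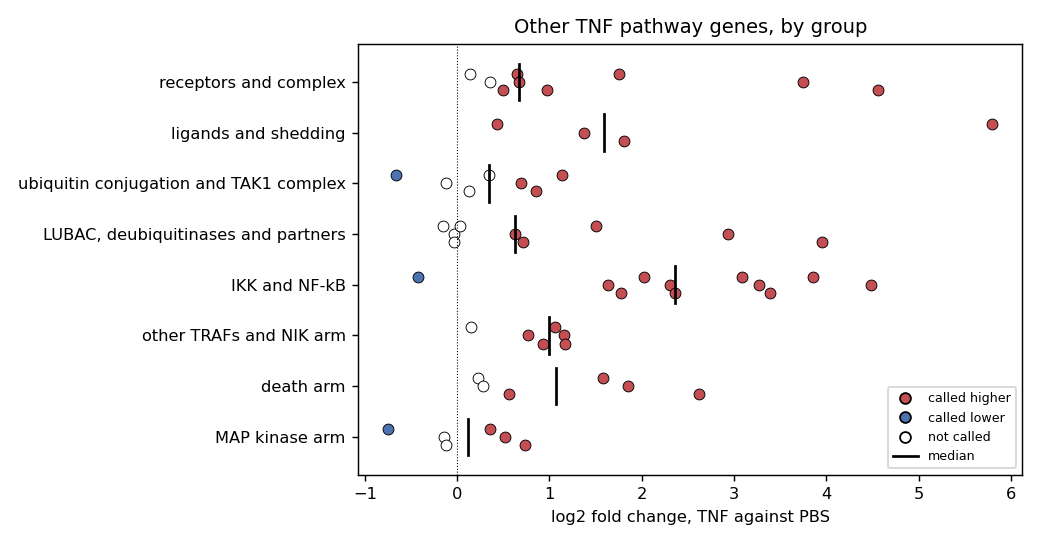
Log2 fold change, TNF against PBS, of each tested gene of the receptor complex (top row) and of the 7 groups around it, with filled red circles for genes called higher, filled blue for lower, open circles for genes not called and a bar at the group median. The IKK and NF-kB group lies farthest right, with a median of 2.36, and Tnf is the single point near 5.80.

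For each receptor, the genes most alike over the 8 libraries were looked up among 8492 genes with a mean of at least 5 normalized CPM. For Tnfrsf1b they were Mvp, Cxadr and Nfkbib, each with a Pearson correlation of 0.999 across the libraries, and log2 fold changes of 2.11, 2.55 and 2.36. For Tnfrsf1a they were Zc3h10 (correlation 0.997), Phc2 (0.996) and Lrfn4 (0.994), with log2 fold changes of 0.78, 0.93 and 1.52. The 8 points share the contrast of TNF with PBS and the scaling of TNF replicate 4, so these values describe likeness in these libraries.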

How the data were processed

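The authors deposited raw counts per Ensembl gene ID, 1 column per library and not normalized. Per the labels' processing notes, which give no roles, FastQC 0.12, STAR 2.7.10a, DESeq2 and the mm39 build were used, and the study's methods describe alignment with the GENCODE M30 annotation. The counter, the strand setting and the treatment of reads that match several genes are not stated in any source read here. Symbols, positions and lengths came from GENCODE release 39 for mouse (GRCm39, the build of the labels), which matched 54749 of the IDs.

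TNF was compared with PBS on the deposited counts with edgeR 4.0.16 in R 4.3.3 (glmQLFTest, the quasi-likelihood test, TMM scaling, filterByExpr, no covariate), with Benjamini-Hochberg adjustment over all genes tested and calls at an adjusted p under 0.05. SE and 95% intervals were derived from its F values. Normalized CPM were counts over the TMM-adjusted library size. Ratios of related genes used counts plus 0.5 and a two-sided exact permutation test over 70 assignments. The procedure was tested on simulated data. Libraries of a group were no duplicates (lowest chi-square per degree of freedom 8.77).

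The genes, the pathway groups and the marker lists were chosen with earlier results of these data known. All 10 genes of the complex are named. Of each pathway group, the called genes with the largest change and with the smallest p are named, and of each receptor the 3 most alike genes. The value of 1 immune marker gene is not reported here by name. Alternatives were library size alone, RLE scaling, TMM without alpha-defensin genes, other filters, DESeq2 1.42.0, limma-voom (limma 3.58.1), an adjusted p under 0.01, the replicate number as a block and leaving out each library.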

Additional observations from a re-analysis of the deposited data

Results flagged for a closer look

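In a group of 4, a single library was far from the other 3 in 3 of 26 groups of values checked (chance gives about 5% of groups), all among the TNF libraries. TNF replicate 4 was at 31.5 normalized CPM for Birc2, where the other TNF libraries were at 15.4 to 17.5, and at 9.54 for Tradd, where they were at 7.02 to 7.44. These are the genes that were not called, and their positive log2 fold changes fell to 0.09 and 0.06 without that library. TNF replicate 3 was at 8.95 for Traf2, where the others were at 12.4 to 13.0. Without it the log2 fold change of Traf2 was 0.77 in place of 0.65, and it was called both ways.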

How the results depend on the processing

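The number called higher was 7 with all libraries, 6 or 7 when 1 library was left out, and 3 under library size alone, and 0 were called lower throughout. Library size alone ended the calls of Tnfrsf1a (0.64), Chuk (0.30), Traf2 (0.24) and Ikbkb (0.073) and reversed Birc2 (-0.18) and Tradd (-0.30). It cut the pathway genes called higher to 19, and the median over all genes tested moved by -0.40. RLE scaling, scaling without alpha-defensin genes, DESeq2 and limma-voom changed no call of these genes. Ikbkb was not called without a filter (0.46) or at an adjusted p under 0.01 (0.50), and ranged from 0.40 to 0.67 when 1 library was left out. No pairing by replicate number was seen, as same-numbered libraries had correlations of deviations from -0.144 to 0.0663. For PBS replicates 1 and 2 the same-numbered TNF library had the highest correlation, and for 3 and 4 another did. With the replicate block no call changed (Birc3 4.58, Ikbkb 0.54). In the paired sign-flip test of ratios, whose smallest p is 0.125, Tnfrsf1b to Tnfrsf1a (2.78) and Birc3 to Birc2 (4.26) could not pass. With canonical transcript lengths, 3 genes kept their place in the order in PBS and 4 in TNF. Traf1 was too low to test at this depth.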
